A study of Saccharomyces cerevisiae with 8 samples.

Results

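The 231 long noncoding RNAs described here are Xrn1-sensitive unstable transcripts (XUTs) of Saccharomyces cerevisiae whose density was little changed by loss of Upf1 in cells without drug. They were picked from 1645 XUTs in a table of 11966 features. The first condition was a mean density of 0.02 or more over the 8 libraries, which 1188 XUTs met. The second was a ratio of upf1 DMSO to WT DMSO below 1.5, with no lower bound and with 0.003 added to each group mean. The rule read the 4 DMSO libraries, so the upf1 to WT difference in DMSO only describes how the members were chosen. The 957 XUTs that met the density condition and had a ratio of 1.5 or more serve as the comparison, and are called the other XUTs.

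Stranded libraries of total RNA, after removal of ribosomal RNA, came from 2 biological replicates each of upf1 ANS, WT ANS, upf1 DMSO and WT DMSO. ANS is anisomycin, an inhibitor of peptidyl transfer by the ribosome, given at 100 µg/ml for 30 min, and DMSO is its solvent in equal volume. All cultures were BY4741, a haploid strain of mating type a that carries his3Δ1, leu2Δ0, met15Δ0 and ura3Δ0, grown at 30°C in YPD to an OD600 of 0.5. The upf1 groups also carried upf1 disrupted by the kanMX4 cassette. Density is reads per nucleotide, scaled between libraries by the authors on a basis not given in the sources used here. It therefore compares transcripts of different length.

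XUTs are transcribed by RNA polymerase II and exported to the cytoplasm, where the 5′ to 3′ exonuclease Xrn1 degrades them after decapping. Many of them are read by ribosomes, and termination at an early stop codon brings in nonsense-mediated decay (NMD), whose core helicase is Upf1. Pairing with an antisense mRNA is known to shield some XUTs from NMD. No function is known for most single XUTs, so the protein-coding genes listed next to a member are named only to place it. The rows of the table run along the chromosomes. Of 5955 steps between successive protein-coding genes on one chromosome, 99.8% went to a higher R64 start, and a member is placed by the genes listed before and after it. Strand and coordinates of XUTs were not used here.

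Between 6954353 and 11994371 reads per library were recovered from the densities. The genotype labels were checked on NAM7, the gene of Upf1, which had a density of 0.0210 and 0.0244 in upf1 ANS, 1.24 and 1.59 in WT ANS, with 0.0113 and 0.00975 in upf1 DMSO and 0.432 and 0.449 in WT DMSO. LEU2 and URA3, which are deleted in the strain, had 0 to 2 reads in each library. HIS3, of which the his3Δ1 allele keeps a part, had 210 to 754 reads, and the met15Δ0 deletion was not analysed here. The summed density of 5 a-cell genes was 11.7 to 72.2 and that of 4 alpha-cell genes 0.0522 to 0.547.

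The members were sparse transcripts with higher densities under the drug in both genotypes. That upf1 did not lie far above WT in DMSO follows from the rule, which set no lower bound. The median density of members was 0.0527 and 0.0536 in upf1 ANS, 0.0451 and 0.0535 in WT ANS, with 0.0145 and 0.0153 in upf1 DMSO and 0.0126 and 0.0139 in WT DMSO. All 4 ANS libraries thus lay above all 4 DMSO libraries, and under ANS the ranges of the genotypes were close, with upf1 replicate 1 below WT replicate 2. The other XUTs had 0.0779 and 0.0747 in upf1 ANS, 0.0482 and 0.0579 in WT ANS, with 0.0267 and 0.0266 in upf1 DMSO and 0.00709 and 0.00781 in WT DMSO. In WT under ANS both sets were at similar levels, while in upf1 under ANS the other XUTs lay higher. In bulk cultures, fewer cells holding a transcript and fewer copies per cell cannot be told apart.

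**Figure D1:**
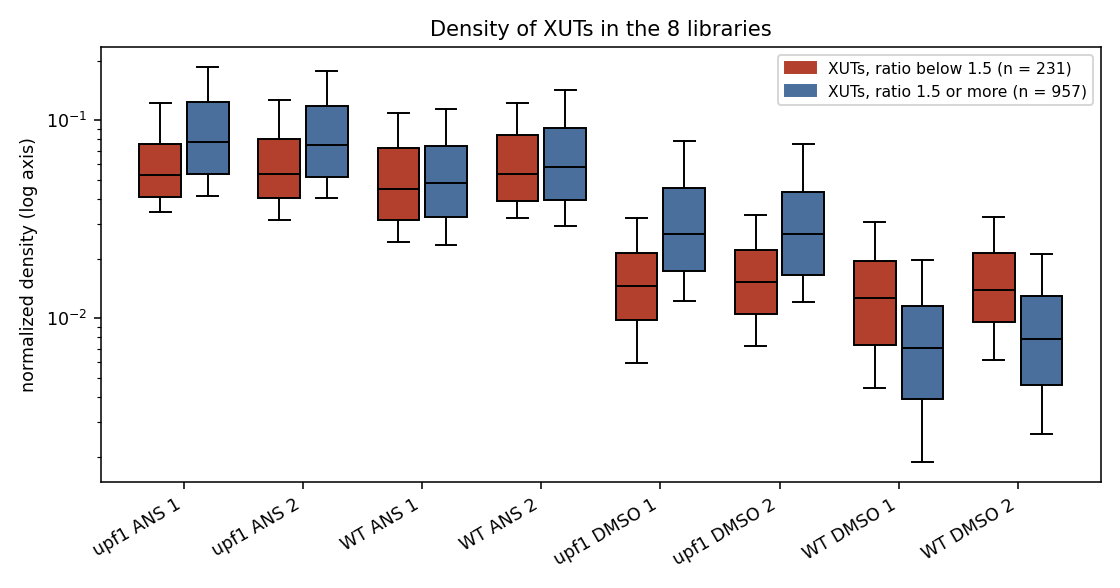
Density of XUTs (log axis) in each of the 8 libraries, with upf1 ANS and WT ANS left of upf1 DMSO and WT DMSO. Boxes span the quartiles of the 231 members (red) or of the 957 other XUTs (blue), lines mark medians and whiskers the 10th and 90th percentiles. The red medians lie between 0.0451 and 0.0536 under ANS and between 0.0126 and 0.0153 in DMSO.

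Set against mRNA, the members lay between 7.81 and 10.8% of the protein-coding level in all 8 libraries. As a share of the median density of protein-coding genes, the member median was 9.51 and 10.8% in upf1 ANS, 9.80 and 9.15% in WT ANS, with 7.81 and 9.08% in upf1 DMSO and 8.90 and 9.73% in WT DMSO. The ranges of upf1 ANS and WT ANS overlapped, as did those of WT ANS and WT DMSO. Both upf1 ANS values lay above both upf1 DMSO values. For the other XUTs the share was 14.1 and 15.01% in upf1 ANS, 10.5 and 9.89% in WT ANS, with 14.4 and 15.8% in upf1 DMSO and 5.02 and 5.47% in WT DMSO. There, WT DMSO stood below every other group, but the WT DMSO libraries entered the choice of both sets.

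Few reads stood behind a single member. The median member had 17 and 23 reads in upf1 ANS, 12 and 14 in WT ANS, with 8 and 11 in upf1 DMSO and 5 and 8 in WT DMSO. Fewer than 10 reads were found for 175 members in WT DMSO replicate 1 and for 19 in upf1 ANS replicate 2, the deepest library. Replicates of WT DMSO differed by a median of 0.33 (log2) per member and those of upf1 ANS by 0.25, against 0.12 and 0.17 for protein-coding genes in the same groups. In upf1 DMSO the values were 0.27 for members and 0.15 for protein-coding genes. In WT ANS they were 0.33 for both. Intervals given below come from the spread between replicates.

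In DMSO, where the rule was applied, the ratio of upf1 to WT ran from 0.462 to 1.497 with a median of 1.15, and 59 members lay below 1. The lowest was that of XUT0119, listed between HMRA1, part of the silent mating-type cassette, and the glycerophosphoinositol transporter gene GIT1. It had densities of 0.0184 and 0.0156 in upf1 DMSO and 0.0481 and 0.0324 in WT DMSO. XUT1435 followed at 0.485 and XUT1547 at 0.613, each with 18 or fewer reads in every DMSO library. Just inside the upper bound lay XUT0771 at 1.497, listed between the ribosome rescue gene DOM34 and the citrate synthase gene CIT1, XUT0233 at 1.490 and XUT0762 at 1.488. Just outside it were XUT1089, XUT0747 and XUT1576, at 1.503, 1.503 and 1.504. At the density floor, XUT1317 (0.0201), XUT0850 (0.0202) and XUT0523 (0.0202) were just inside, and XUT1761, XUT1551 and XUT0702, all at 0.0197, just outside. With 1 DMSO library left out, the rule gave 227 to 272 members, of which 180 to 211 were among the 231.

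Such a ratio was less common among XUTs than among mRNAs. Of features with a mean density of 0.02 or more, 231 of 1188 XUTs (19.4%) and 115 of 644 SUTs (17.9%), the stable unannotated transcripts, had a ratio below 1.5. It was met by 247 of 679 NUTs (36.4%), which accumulate without the termination factor Nrd1, and by 278 of 453 CUTs (61.4%), which the nuclear exosome degrades. Among protein-coding genes the count was 4361 of 5613 (77.7%). These shares describe the contrast that the rule used and carry no test.

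The 4 ANS libraries gave the same comparison in samples that the ratio had not used. The density floor did use them, for members and the other XUTs, while all features did not have to meet it. A high value in either genotype under ANS could thus let an XUT in. Between upf1 and WT under ANS 0 of 231 members rose and 0 fell (limma, adjusted p below 0.05 over all 11579 features tested). At an unadjusted p below 0.05, 16 of 231 members lay higher and 5 lower in upf1, as did 1913 and 326 of the 11579 features tested. Of all features tested, 2.69% rose and 0.216% fell in this comparison, and 79 of the 957 other XUTs rose and 0 fell (421 higher and 3 lower at an unadjusted p below 0.05). The median fitted log2 change of members was 0.11, with quartiles of -0.07 and 0.33, against 0.53 for the other XUTs, 0.12 for all features and -0.01 for protein-coding genes. That median was 0.01 without WT ANS replicate 1 and 0.23 without WT ANS replicate 2. After rescaling on protein-coding genes 0 members rose and 0 fell, where 5.53% and 1.97% of all features did. Of the 66 members whose DMSO libraries alone averaged 0.02 or more, 0 rose and 0 fell as deposited, with a median log2 change of 0.12.

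The ratio of upf1 ANS to WT ANS, formed as in the rule, had a median of 1.06 in members and 1.44 in the other XUTs. It was 1.5 or more in 19 members (8.23%), in 416 of the other XUTs (43.5%) and in 16.9% of all features. It was below 1 in 81 members (35.1%), in 99 of the other XUTs (10.3%) and in 38.1% of all features. Both upf1 libraries lay above both WT libraries for 63 members (27.3%) and below both for 23 (9.96%), where 34.7% and 9.47% of all features did so. The members thus lay below all features in the share that was higher in upf1 and near them in the share that was lower. Among protein-coding genes 20.4% lay higher and 11.6% lower, so there the member share that was higher stood above. Among the other XUTs 70.5% lay higher and 2.82% lower.

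**Figure D2:**
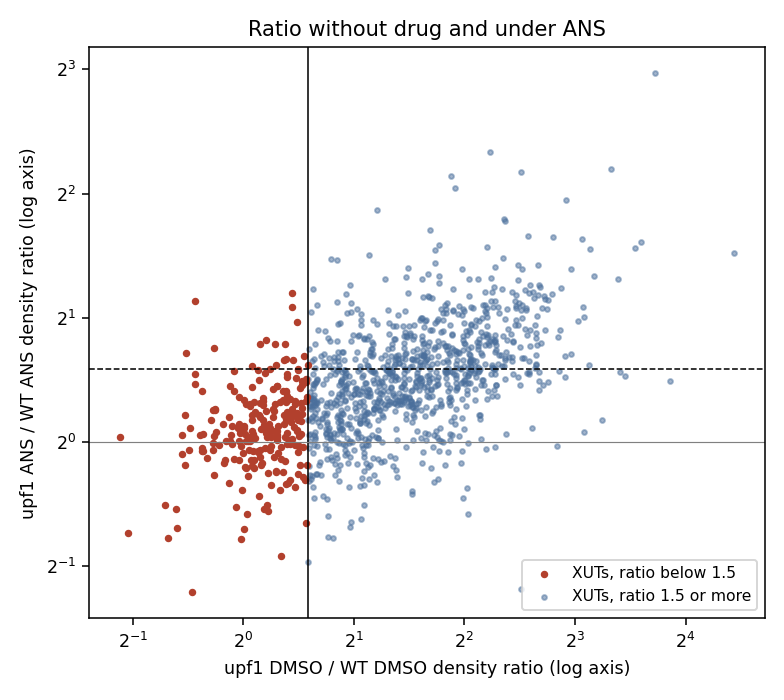
Each point is 1 XUT with a mean density of 0.02 or more, by its ratio of upf1 DMSO to WT DMSO (horizontal, log axis, used by the rule) and of upf1 ANS to WT ANS (vertical, log axis). The solid vertical line is the rule's bound of 1.5 and the dashed line marks the same ratio under ANS. Of the red members 19 lie on or above the dashed line, and of the blue other XUTs 416.

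The failure to call a member does not show equal levels. The median standard error of a member's log2 change was 0.28. The 95% interval lay wholly below a 1.5-fold rise for 64 of 231 members, and within 1.5-fold in both directions for 20. Among the other XUTs these counts were 80 and 24 of 957, and among all features 5256 and 3308 of 11579. For the rest, the interval held a difference of 1.5-fold or more. Leaving out single libraries gave 2 rises without WT ANS replicate 2, 1 without either WT DMSO replicate and 0 otherwise. A fit to the ANS libraries alone called 3 rises and 1 fall, and 5 times the pseudocount 3 rises and 2 falls.

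The members with the largest and smallest values in upf1 under ANS were chosen after their values were seen. The density floor also averaged over these ANS libraries, so the p-values of these members only describe them. XUT1115, listed between the SUMO gene SMT3 and SDH7, had densities of 0.104 and 0.0940 in upf1 ANS and 0.0416 and 0.0448 in WT ANS. Its log2 difference was 1.13 ± 0.28 (SE), with a 95% interval of 0.51 to 1.76 and adjusted p = 0.0641 in limma. In DMSO the same transcript had 0.0250 and 0.0152 in upf1 and 0.0349 and 0.0216 in WT, so the genotypes overlapped there. XUT1115 passed the threshold with 5 times the pseudocount (adjusted p = 0.0228), with a replicate block (0.0477) and in a fit to the ANS libraries alone (0.0110).

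XUT0128, listed between the mating-type endonuclease gene HO and GCS1, had 0.0823 and 0.0565 in upf1 ANS and 0.0135 and 0.0436 in WT ANS. Its log2 difference of 1.35 ± 0.47 (SE) had adjusted p = 0.154 in limma, and without WT ANS replicate 2 it was 2.08. In the fit to the ANS libraries alone XUT0128 passed (adjusted p = 0.0189). XUT0402, beside the methionyl-tRNA synthetase gene MES1, had 0.0749 and 0.0472 in upf1 ANS and 0.0301 and 0.0243 in WT ANS, on 3 to 12 reads each. The WT libraries of all 3 transcripts lay below the upf1 libraries.

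In the opposite direction, XUT0404 had 0.0603 and 0.0633 in upf1 ANS and 0.108 and 0.109 in WT ANS. Its log2 difference was -0.78 ± 0.25 (SE) with adjusted p = 0.130 in limma, and XUT0404 passed with 5 times the pseudocount (-0.67, adjusted p = 0.0281). XUT0338, listed beside the mitochondrial release factor gene MRF1, had 0.0391 and 0.0549 in upf1 ANS and 0.0874 and 0.138 in WT ANS, on 7 to 19 reads. XUT1726 had 3 and 6 reads in upf1 ANS and 6 and 6 in WT ANS, and a log2 difference in density of -0.93 ± 0.29 (SE, adjusted p = 0.121 in limma). The upf1 densities of these transcripts lay below the WT densities without overlap.

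The density floor averages over ANS libraries too, so a member could pass it through the drug alone. In 66 members the DMSO libraries alone averaged 0.02 or more. Picking these on DMSO values, the baseline of the drug contrast, can lower their fitted change. The background of all features was not picked in this way. Under ANS, averaged over both genotypes, 63 of these 66 members rose and 0 fell (limma, adjusted p below 0.05), with a median log2 change of 1.37. Of all features tested 93.7% rose and 0.423% fell, so that share is near the background, and the median of all features was 1.59. Over all 231 members 226 passed and 0 fell, with a median of 1.69 and quartiles of 1.29 and 2.14, given as a description, since most of them met the floor only with their ANS values. The averaged drug effect was tested because its error is uncorrelated with that of the upf1 to WT difference in DMSO when all libraries vary alike. All 4 ANS libraries lay above all 4 DMSO libraries for 214 members (92.6%), where 82.5% of all features did so. The share was 91.5% for protein-coding genes and 76.9% for the other XUTs. The member share is a description too, since the floor, which all features did not have to meet, used ANS libraries.

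Relative to mRNA the drug response of members was mixed. As deposited, the median protein-coding gene rose by 1.59 (log2) under ANS, and after each library was rescaled on protein-coding genes that median was 0.05. On that scale 75 members rose, 19 fell and 137 did neither, with a median log2 change of 0.30. These counts are a description, since most members met the floor only with their ANS values. Of all features 34.8% rose and 21.8% fell after rescaling. Among the other XUTs 459 of 957 rose and 38 fell, with a median of 0.47. The floor applied to the other XUTs as well, but not to all features. Of the 66 members with a DMSO mean of 0.02 or more, 11 rose and 14 fell after rescaling, with a median of -0.10.

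**Figure D3:**
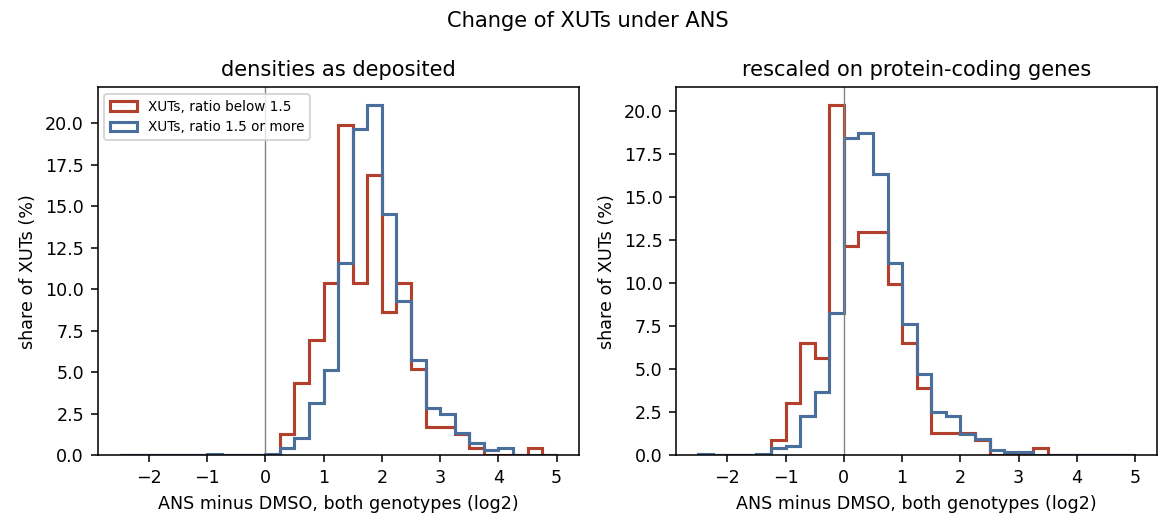
Share of XUTs (vertical, %) by log2 change under ANS, averaged over both genotypes (horizontal, steps of 0.25), as deposited (left) and after rescaling on protein-coding genes (right). The median of members (red) is 1.69 as deposited and 0.30 after rescaling, and that of the other XUTs (blue) 1.85 and 0.47.

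Within each genotype the drug effect is a description, since the DMSO libraries chose the members. The median log2 change of members was 1.66 for ANS in upf1 and 1.70 for ANS in WT. For the other XUTs it was 1.35 in upf1 and 2.36 in WT. For all features it was 1.37 in upf1 and 1.77 in WT. After rescaling the median was 0.36 in upf1 and 0.21 in WT for members, and -0.02 in upf1 and 0.97 in WT for the other XUTs. Both ANS libraries lay above both DMSO libraries for 227 members in upf1, where 94.9% of all features did so and 0.725% were lower. In WT this held for 223 members, where 93.0% of all features were higher and 0.717% lower.

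The most abundant member, XUT0109, lies between RHB1, a gene of a small GTPase, and the pantothenate transporter gene FEN2 on chromosome III and is 376 nt long. It had densities of 1.34 and 1.41 in upf1 ANS, 1.94 and 1.56 in WT ANS, with 0.663 and 0.503 in upf1 DMSO and 0.523 and 0.457 in WT DMSO. Under ANS the upf1 libraries were the lower ones, in DMSO the replicates of the genotypes overlapped. XUT0109 rose under ANS by 1.54 ± 0.12 (log2, SE, adjusted p = 8.68e-07 in limma), and lay at -0.05 ± 0.15 after rescaling.

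XUT1511, the longest member at 2685 nt, is listed next to FKS1, the gene of a glucan synthase subunit. It had 0.947 and 0.862 in upf1 ANS, 0.689 and 0.749 in WT ANS, with 0.472 and 0.397 in upf1 DMSO and 0.295 and 0.288 in WT DMSO. Without overlap, upf1 was higher than WT with and without the drug. Its difference under ANS was 0.33 ± 0.15 (log2, SE), with a 95% interval of 0.00 to 0.66 and adjusted p = 0.254 in limma. Its ratio in DMSO, 1.48, was close to the bound of the rule.

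XUT0928 is listed among features with the systematic names of the 2-micron plasmid genes, R0040C being the next row. It had 0.384 and 0.310 in upf1 ANS, 0.264 and 0.377 in WT ANS, with 0.123 and 0.120 in upf1 DMSO and 0.116 and 0.125 in WT DMSO. The genotypes overlapped under both treatments, and the averaged rise under ANS was 1.42 ± 0.14 (log2, SE, adjusted p = 4.09e-06 in limma). The plasmid is present in many copies, and copy number was not measured here.

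XUT1564 and XUT1523 had the smallest rises of the 5 most abundant members. XUT1564, listed between the Ty element gene YMR051C and FAR3, had 0.561 and 0.542 in upf1 ANS, 0.400 and 0.474 in WT ANS, with 0.454 and 0.375 in upf1 DMSO and 0.306 and 0.292 in WT DMSO. Its averaged rise was 0.48 ± 0.11 (log2, SE, adjusted p = 0.00199 in limma), and after rescaling it fell by 1.10 on the log2 scale (adjusted p = 9.77e-06). XUT1523, between the splicing factor gene SPP382 and TUS1, had 0.356 and 0.257 in upf1 ANS, 0.199 and 0.244 in WT ANS, with 0.194 and 0.174 in upf1 DMSO and 0.140 and 0.113 in WT DMSO. Ty elements are repeated, and how the authors counted reads that match several places is not given in the sources used here.

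**Figure D4:**
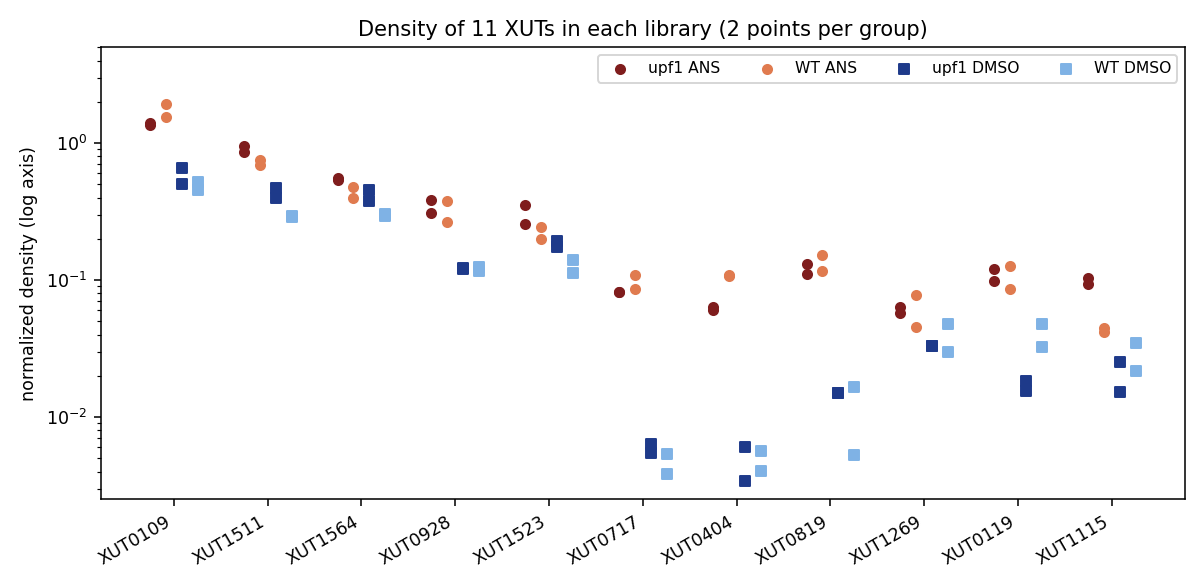
Density (log axis) of 11 members in each library, with 2 points per group and upf1 ANS, WT ANS, upf1 DMSO and WT DMSO from left to right within a member. XUT0717 and XUT0404 show the widest gap between the ANS and DMSO points, XUT1564 and XUT1269 the narrowest, and XUT1115 a gap between upf1 ANS and WT ANS.

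Among members above the median density, the largest drug effects came from transcripts almost without reads in DMSO. XUT0429, listed between DED81, which codes for asparaginyl-tRNA synthetase, and YHR020W, had 28 and 28 reads in upf1 ANS, 20 and 18 in WT ANS, with 2 and 1 in upf1 DMSO and 1 and 0 in WT DMSO. XUT1381, beside the RNA polymerase I factor gene RRN7, had 11 and 21 reads in upf1 ANS, 7 and 13 in WT ANS, with 0 and 2 in upf1 DMSO and 1 and 1 in WT DMSO. No fold is given for either, since it would rest on 4 DMSO reads in all.

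XUT0717, between the kinetochore gene SPC24 and SHH3, had densities of 0.0817 and 0.0823 in upf1 ANS, 0.0864 and 0.109 in WT ANS, with 0.00640 and 0.00543 in upf1 DMSO and 0.00536 and 0.00387 in WT DMSO. Its fitted log2 change was 3.43 ± 0.17 (SE) as deposited and 2.14 ± 0.14 after rescaling. XUT0404, between UPA1 and the vesicle cargo receptor gene ERV29, had 0.00604 and 0.00342 in upf1 DMSO and 0.00562 and 0.00406 in WT DMSO, far below its ANS values given above. Its fitted log2 change was 3.39 ± 0.18 (SE). XUT0819, beside the manganese homeostasis gene ATX2, had 0.131 and 0.110 in upf1 ANS, 0.117 and 0.151 in WT ANS, with 0.0151 and 0.0149 in upf1 DMSO and 0.00526 and 0.0164 in WT DMSO. In these 3 transcripts all ANS libraries lay above all DMSO libraries. They reached the density floor only through the ANS libraries and were picked for their drug effect, so no test is given.

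At the other end, among members picked for the smallest averaged drug effect, XUT1547 did not pass the test and XUT1061 did not either. XUT1547, between GIS4 and the tRNA-modifying enzyme gene TRM12, had 0.0505 and 0.0611 in upf1 ANS, 0.0304 and 0.131 in WT ANS, with 0.0314 and 0.0333 in upf1 DMSO and 0.0620 and 0.0474 in WT DMSO. Its averaged difference was 0.48 ± 0.35 (log2, SE, adjusted p = 0.216 in limma). WT ANS replicate 2 stood apart, and without it the difference was -0.02. XUT1061, between SNF11 and the trehalose-phosphate phosphatase gene TPS2, had 0.0204 and 0.108 in upf1 ANS, 0.0185 and 0.106 in WT ANS, with 0.0291 and 0.0292 in upf1 DMSO and 0.0147 and 0.0399 in WT DMSO. In both genotypes its replicate 2 held the higher ANS value, and the groups overlapped.

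XUT1269 and XUT0859, picked in the same way, passed the test as deposited with small changes. The picking used the tested contrast, so p-values of members picked this way only describe them. XUT1269, beside the phosphatidylcholine synthesis gene PCT1, had 0.0576 and 0.0636 in upf1 ANS, 0.0453 and 0.0775 in WT ANS, with 0.0332 and 0.0331 in upf1 DMSO and 0.0479 and 0.0300 in WT DMSO. Its rise of 0.70 ± 0.20 (log2, SE, adjusted p = 0.00739 in limma) stood against -0.78 ± 0.18 after rescaling (adjusted p = 0.00789). XUT0859, between the autophagy gene ATG41 and the ribosomal protein gene RPL36B, rose by 0.68 ± 0.23 (log2, SE, adjusted p = 0.0148 in limma), which was lost without WT ANS replicate 2 (0.54, adjusted p = 0.0638) and without upf1 DMSO replicate 1 (0.44, adjusted p = 0.0626). XUT0119, the member of lowest ratio in DMSO, rose by 1.89 ± 0.19 (log2, SE, adjusted p = 3.84e-06 in limma), and under ANS its densities of 0.0977 and 0.121 in upf1 overlapped those of 0.0856 and 0.127 in WT.

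Length, which the rule did not use, differed between the sets. The members had a median length of 367 nt with quartiles of 262.5 and 578 nt, against 709 nt with quartiles of 385 and 1270 nt for the other XUTs. CUTs, at 377 nt, were close to the members, while SUTs had 753 nt and NUTs 1512 nt. Of the members 85 (36.8%) were shorter than 300 nt and 14 (6.06%) reached 1000 nt, where 140 (14.6%) and 335 (35.01%) of the other XUTs did. No test across transcripts was made.

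Members made up 37.8% of the 225 XUTs under 300 nt, 27.4% of the 270 of 300 to under 500 nt, 16.9% of the 344 of 500 to under 1000 nt and 4.01% of the 349 of 1000 nt or more. Short XUTs also had fewer reads behind the ratio, with a median of 22, 34, 65.5 and 220 reads over the 4 DMSO libraries in these classes. Among XUTs with 50 or more such reads the shares were 29.2% of 24, 19.5% of 77, 12.0% of 216 and 4.08% of 343. The order by length was the same there.

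**Figure D5:**
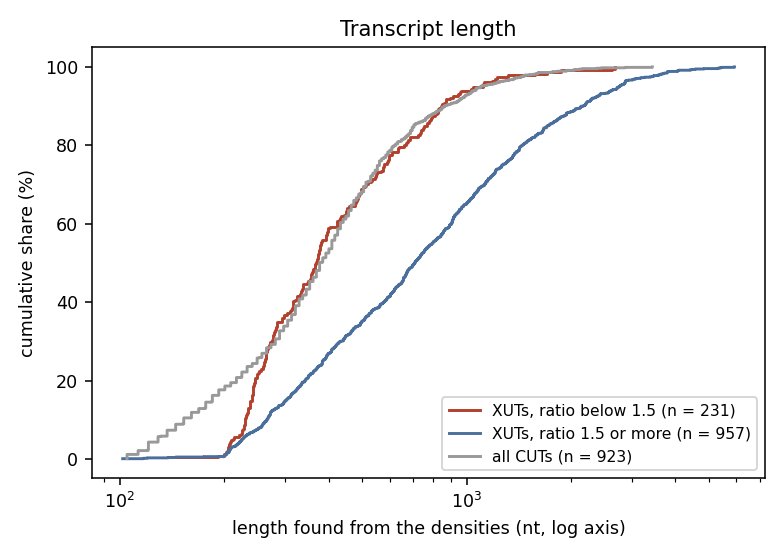
Cumulative share (vertical, %) of members (red), other XUTs (blue) and all CUTs (grey) by length in nt (horizontal, log axis). The medians are 367 nt for members, 709 nt for the other XUTs and 377 nt for CUTs.

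The ratio of upf1 to WT under ANS comes from libraries that the ratio of the rule did not use but the density floor did. Over all XUTs of mean density 0.02 or more its median was 1.22 under 300 nt and 1.25 at 300 to under 500 nt. It was 1.33 at 500 to under 1000 nt and 1.54 at 1000 nt or more. For members alone the median ratio was 1.06, 1.06, 1.09 and 1.07 in these classes, and for the other XUTs 1.32, 1.35, 1.39 and 1.56. In each length class the other XUTs lay above the members. The rise with length was seen in the other XUTs and not in the member medians, which for 1000 nt or more rest on 14 transcripts.

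Some members appear under other names too. Of 202 members with 50 or more reads in all, 45 (22.3%) had reads that matched those of a feature within 6 rows in every library, to 10% and 1 read. Among the 926 other XUTs with such depth 229 (24.7%) did. The partner was a SUT for 29 members (14.4%), a CUT for 13 (6.44%) and a NUT for 8 (3.96%). For the other XUTs it was a SUT for 159 (17.2%), a CUT for 10 (1.08%) and a NUT for 92 (9.94%). CUT partners were thus more common by share among members and NUT partners among the other XUTs. Members were also shorter and had fewer reads than the other XUTs, and the cause of this contrast was not tested. XUT0404 shared its reads with SUT145, XUT1269 with SUT567, XUT1547 with SUT721 and XUT0859 with SUT392.

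As deposited, all 13 members with a CUT partner rose under ANS, with a median log2 change of 1.41, as did 28 of 29 with a SUT partner, with a median of 1.39, and 8 of 8 with a NUT partner, with a median of 1.63. The background for these counts is 93.7%, and the median of all 231 members was 1.69. These counts are a description too, since most of the 231 members met the floor only with their ANS values. The median ratios of upf1 to WT under ANS were 1.06 with a CUT, 1.10 with a SUT and 1.12 with a NUT partner.

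Members were found on every nuclear chromosome. Their share of XUTs of mean density 0.02 or more ran from 10.7% on chromosome I, with 3 of 28, to 29.3% on chromosome XI, with 17 of 58. The higher of the densities of the protein-coding genes listed before and after an XUT had a median of 0.541 for members and 0.542 for the other XUTs.

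The decay machinery itself was read from a list of 16 factors besides NAM7: the NMD genes NMD2, UPF3, NMD4 and EBS1, the exonuclease gene XRN1, decapping genes and those of the Ski complex. In upf1 under ANS 0 of 16 rose and 0 fell as deposited, where 2.69% and 0.216% of all features did, and 1 rose after rescaling, where 5.53% of all features did. That was NMD4, which codes for a protein that binds Upf1, with densities of 1.05 and 0.934 in upf1 ANS and 0.621 and 0.727 in WT ANS. Its log2 change was 0.56 ± 0.16 (SE, adjusted p = 0.0890 in limma) as deposited and 0.53 ± 0.08 (adjusted p = 0.0124) after rescaling. Under ANS averaged over genotypes 16 of 16 rose as deposited, where 93.7% of all features did. After rescaling 6 rose and 4 fell, where 34.8% and 21.8% of all features did, so these counts are near the background. XRN1 was among the 4 that fell, at -0.95 ± 0.05 (log2, SE) after rescaling against 0.64 ± 0.12 as deposited, while DCP2, the decapping enzyme gene, lay at 0.57 ± 0.05 and 2.15 ± 0.12.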

How the data were processed

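The deposited values are normalized densities, a signal that the authors computed for 11966 features in 8 libraries, beside 4 columns of group means, not used here. For the authors' processing, the submitters' processing notes name Trim Galore, HISAT2 2.2.0, featureCounts 2.0.0, DESeq2 and build R64, with no roles. For all 11954 features above 0, 1 length between 20 and 20000 nt, the shortest that fitted, turned the densities into whole reads (tolerance 1e-04 reads). These reads give depth and were not tested. Differences were tested with limma 3.58.1 (R 4.3.3) after adding a pseudocount of 0.003397, the 5th percentile of values above 0, and taking log2. The fit had 4 group means, a variance trend and 11579 features whose average reached the pseudocount, with Benjamini-Hochberg adjustment over all of them. It was tested on simulated data. Rescaling divides each library by its median ratio to the geometric mean, over protein-coding genes. Fold changes include the pseudocount and understate those of sparse transcripts.

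Members, lists and tests were chosen with earlier results of these data known. Named members have the highest density, the largest or smallest drug effect above the median density, or lie nearest a bound of the rule. Other pseudocounts, no filter, rescaling, a replicate block, no trend, fewer libraries and other bounds were tried. RNA spike-ins were not used here.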

Additional observations from a re-analysis of the deposited data

Results flagged for a closer look

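XUT0717 was listed for a closer look because upf1 and WT differed in opposite directions with and without the drug, each time without overlap of the 2 replicates. Its ratio of upf1 ANS to WT ANS was 0.843, with densities of 0.0817 and 0.0823 in upf1 ANS and 0.0864 and 0.109 in WT ANS. In DMSO the ratio was 1.17, on 5 and 5 reads in upf1 and 3 and 3 in WT. The difference between the drug and DMSO was not tested, since the DMSO libraries chose the members.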

How the results depend on the processing

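For upf1 ANS against WT ANS, 0 members rose and 0 fell; 5 times the pseudocount called 3 rises and 2 falls, a fit to the ANS libraries alone 3 and 1, the replicate block 1 rise, and leaving out 1 library 0 to 2 rises. The median of 0.11 ran from 0.0082 to 0.2260 with 1 library left out. For ANS averaged over genotypes, 226 members rose as deposited, as did 46 of the 47 members of mean 0.05 or more. After rescaling 75 members rose and 19 fell. The density floor used ANS libraries, so these counts are a description. The median log2 change of 1.69 was 1.1536 with 5 times the pseudocount and 1.8831 with a smaller one, 0.2992 rescaled, 1.8940 at mean 0.05 or more, 1.3721 at a DMSO mean of 0.02 or more and 1.4556 with 20 or more DMSO reads, an alternative chosen after seeing the data. Within upf1, 1.66 became 1.1872, 1.8471 and 0.3648 with the larger pseudocount, the smaller one and rescaling, and within WT, 1.70 became 1.1659, 1.8854 and 0.2083, with 1.5987 to 1.8141 when 1 library was left out. A ratio below 1.2 left 132 members and one below 2 gave 451. The cause of these shifts was not tested.

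Of 783 alternative values of 27 named members, 721 kept direction and side of the threshold and 38 reversed. After rescaling, the averaged ANS change was -0.0512 for XUT0109, -0.4118 for XUT1511, -1.105 for XUT1564, -0.1433 for XUT0928, -0.817 for XUT1523, -1.0141 for XUT1547, -0.7996 for XUT0859, -0.7803 for XUT1269, -0.6977 for XUT1061, -0.0867 for XUT1115 and -0.2073 for XUT0402, and the upf1 difference under ANS -0.0028 for XUT1269, -0.0189 for XUT1317 and -0.0181 for XUT0523. With 1 library left out, that difference ran from -0.1252 to 0.3816 for XUT0928, -0.1599 to 0.2344 for XUT0429, -0.3371 to 0.6145 for XUT1381, -0.3229 to 0.0380 for XUT0819 and -1.189 to 0.8023 for XUT1547. It ran from -0.3283 to 0.2313 for XUT0859, -0.3407 to 0.3913 for XUT1269, -1.0857 to 1.2382 for XUT1061, -0.2153 to 0.3332 for XUT0119 and -0.4109 to 0.0721 for XUT0233. It ran from -0.0869 to 0.7523 for XUT0762, -0.2466 to 0.2584 for XUT1317, -0.1572 to 0.8397 for XUT0850 and -0.2033 to 0.2190 for XUT0523. The averaged ANS change of XUT1547 ran from -0.0224 to 0.9732.

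Same-numbered replicates deviated together with correlations of -0.05 to 0.17 over features, the highest between upf1 ANS and upf1 DMSO. Such values cannot show whether the numbers pair the samples, and the main fit did not pair them. The replicate block called 228 rises under ANS. Depth limits single values, with 104 to 175 members under 10 reads in each DMSO library and 19 to 85 in each ANS library.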
